A study of Mus musculus with 6 samples.

Results

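The genes described here are 38 mouse genes of homologous recombination and the Fanconi anaemia pathway, picked by gene symbol. Of these, 37 were found among the 20475 genes of the expression table, and Rbbp8 is not analysed here. They are Brca1 and Brca2 with their partners Bard1, Palb2 and Brip1, the paralogs of the recombinase (Rad51b, Rad51c, Rad51d, Xrcc2 and Xrcc3), the strand exchange factors Rad51ap1, Rad52, Rad54l and Rad54b, and the break sensing and resection genes Mre11a, Rad50, Nbn and Exo1. Blm, Rmi1, Eme1 and Mus81 separate joined DNA molecules. The Fanconi genes are the core complex members Fanca, Fancb, Fancc, Fance, Fancf, Fancg, Fancl and Fancm with the conjugating enzyme gene Ube2t, and the substrate pair Fancd2 and Fanci. The kinase genes Atm, Atr, Chek1 and Chek2 complete the set.

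Transcripts were measured by RNA-seq in NIH3T3, an immortalised fibroblast line of mouse embryonic origin, in 3 groups of 2 libraries. Every group was at passage 5, grew in DMEM with fetal bovine serum, and gave its RNA 48 h after treatment. The NIH3T3+PBS cells received phosphate-buffered saline, the liquid that carried the vesicles. A second group received extracellular vesicles (EVs, membrane-enclosed particles shed by cells) of MCF10A, a human breast epithelial line that does not form tumours, and the other received EVs of MDA-MB-231, a human line from a triple-negative breast cancer. The recipient was 1 mouse line and the vesicles were human. The labels do not say whether replicates were separate cultures. Each p-value sets a change against the spread between these libraries, partly borrowed from other genes, and that spread may be technical.

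Homologous recombination mends a broken chromosome by copying the intact sister chromatid, and so it works mainly in the S and G2 phases of dividing cells. The MRN complex binds the broken ends, nucleases trim them to single strands, the BRCA1, PALB2 and BRCA2 axis loads the recombinase, and RAD54 proteins, BLM and structure-specific nucleases carry the exchange to its end. The Fanconi pathway deals with crosslinks that tie both DNA strands together: its core complex attaches ubiquitin to FANCD2 and FANCI, which then hand the lesion to nucleases and to recombination. In cultured fibroblasts many of these transcripts are known to be more abundant in dividing than in resting cells.

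The libraries held 22451173 to 29315530 gene reads, and 14553 to 14856 genes had a read in a library. Values are normalised reads, that is, the authors' gene reads adjusted to a common library size, and changes are log2 changes of the value plus 1 with their standard errors (SE) from limma. A call means a p under 0.05 after Benjamini-Hochberg adjustment over the 15025 genes that reached 1 normalised read in 2 libraries or more, a filter all 37 genes passed. Of 12 fibroblast markers 11 had a mean of at least 1 CPM (counts per mega-read), and their summed normalised reads were 480771 and 481596 in the PBS libraries, 422856 and 410068 after MCF10A EVs and 406423 and 397216 after MDA-MB-231 EVs. Of these 12, 1 was called higher and 8 lower with MCF10A EVs against PBS, and 1 higher and 7 lower with MDA-MB-231 EVs. Of 12 epithelial markers 1 reached that level, Epcam, Krt5, Krt18 and Esrp1 were at 0 in every library, and the sums were 60.0 to 75.8. Of 8 leukocyte markers 2 reached it, Emr1 and Cd3e were at 0, and the sums were 3142 and 3036 in the PBS libraries, 1833 and 1780.3 after MCF10A EVs and 1059 and 993 after MDA-MB-231 EVs. Of 8 endothelial markers 1 reached it, with sums of 158 to 364. The part of these markers in the results below was not tested. In bulk RNA, fewer cells of a kind, such as cells in S phase, and less RNA per cell cannot be told apart.

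Transcripts of 25 of the 37 genes rose with MDA-MB-231 EVs against PBS and none fell. MCF10A EVs also gave 25 rises and 0 falls against PBS. All 5 genes of the BRCA group, all 4 of break sensing and resection, all 4 kinase genes and both substrate genes, Fancd2 and Fanci, were among those that rose with MDA-MB-231 EVs. Rad51b, Rad51c, Rad51d, Xrcc3, Rad52, Rmi1, Mus81, Fancc, Fance, Fancf and Fancg passed the test in neither comparison with PBS. The rises were modest. The median log2 change of the 37 genes was 0.43 with MDA-MB-231 EVs, within a range of -0.16 to 0.74, and 0.28 with MCF10A EVs, within -0.08 to 0.59. Over all 15025 genes the medians were 0.0104 and 0.0001.

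Calls were common over the whole table. Of all tested genes, 17.9% were called higher and 16.9% lower with MDA-MB-231 EVs against PBS, and 17.1% were called higher and 14.6% lower with MCF10A EVs. With library totals in place of the authors' scaling, the share of calls that were higher moved from 51.4% to 67.8% for MDA-MB-231 EVs, from 54% to 61.2% for MCF10A EVs and from 40.4% to 61.7% between the 2 vesicle sources. Under library totals 28, 25 and 12 of the 37 genes were called higher, and 3979, 2979 and 1784 of all 15025 tested genes. At an unadjusted p under 0.05, limma had 28 genes higher and 0 lower with MDA-MB-231 EVs, and 26 and 0 with MCF10A EVs. Of all 15025 tested genes, 6421 and 6084 were under that p in either direction. edgeR and DESeq2 on the recovered reads also called 0 of the 37 lower in either comparison. Over all genes, edgeR called 2718 and 2516 of 12352 lower, and DESeq2 1968 and 1614 of 16208. Both comparisons use the same PBS libraries.

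**Figure D1:**
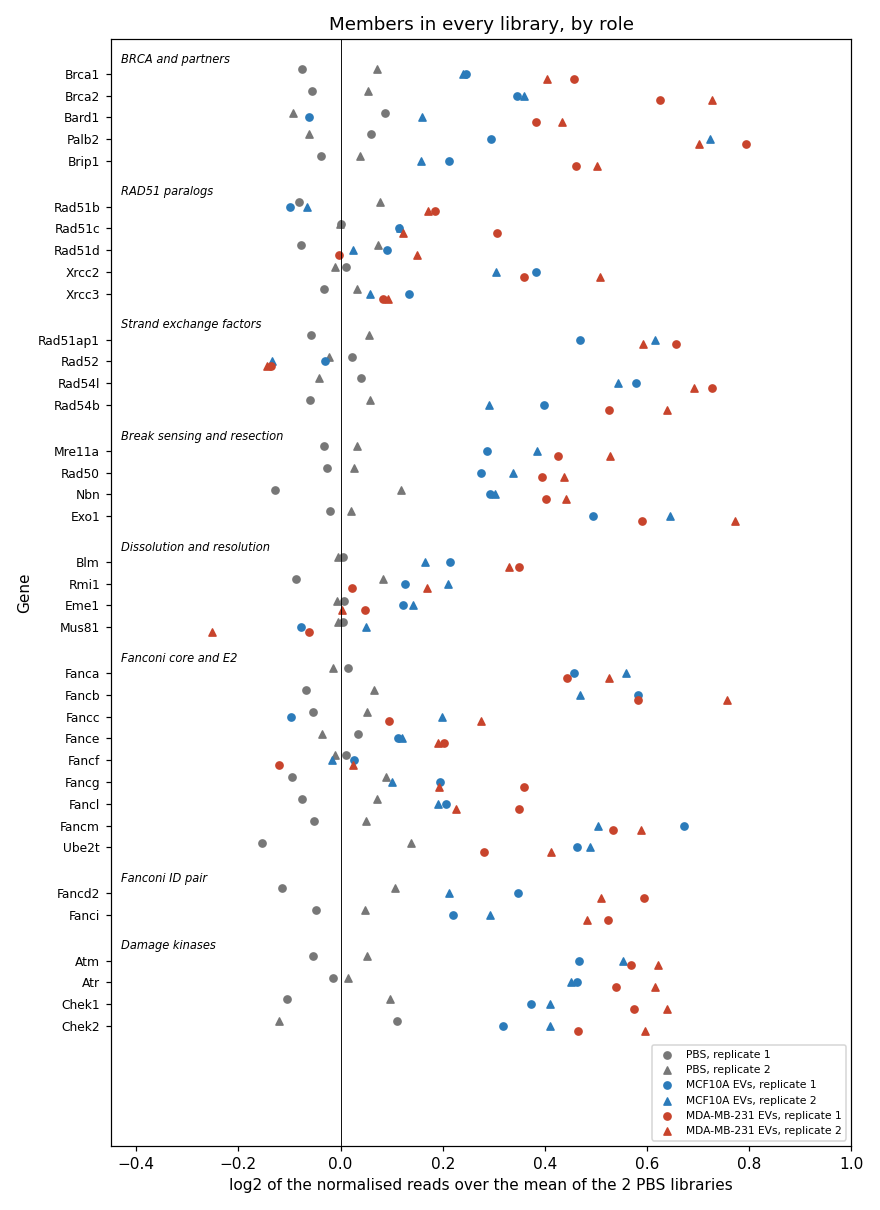
Each point is 1 library, drawn as log2 of its normalised reads over the mean of the 2 PBS libraries, for 37 genes ordered by role (colour for the group, shape for the replicate). For Brca2, Rad54l, Exo1, Atm and Atr both vesicle groups lie to the right of both PBS libraries, whereas for Rad51d and Fancf the groups overlap.

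**Figure D2:**
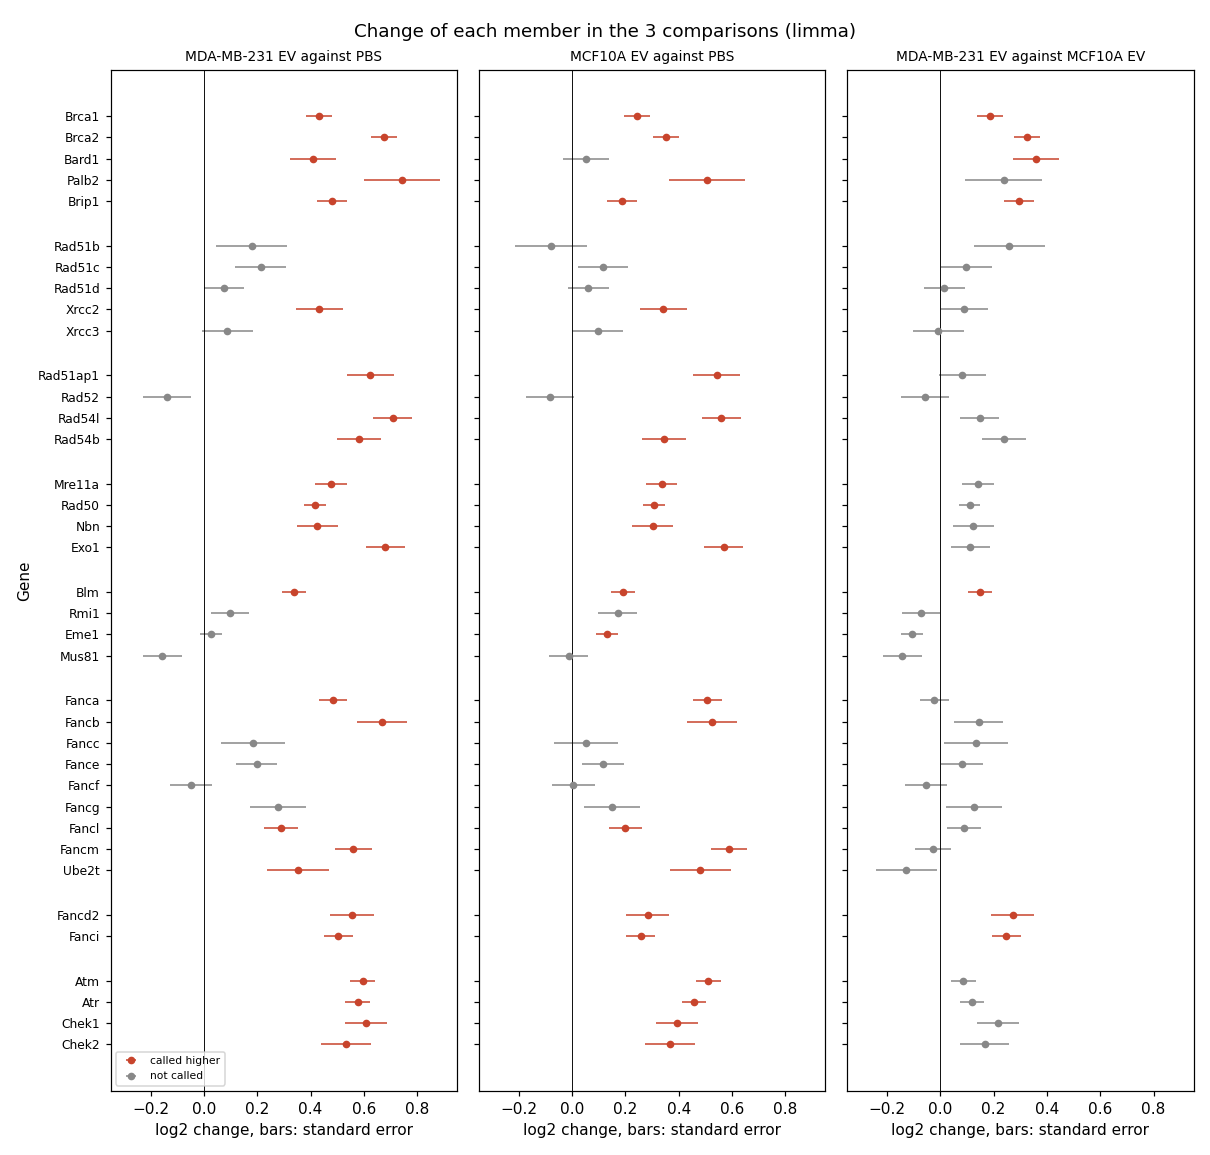
log2 change with its standard error (bars) of the 37 genes in the 3 comparisons, coloured by the limma call. The 25 genes called in each comparison with PBS all lie right of 0, and 7 genes are called between the 2 vesicle sources.

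The BRCA group rose as a whole with MDA-MB-231 EVs. All 5 genes were called higher, with log2 changes of 0.41 to 0.74, and 4 of 5 were called higher with MCF10A EVs. Brca1, on chromosome 11, encodes the ubiquitin ligase that directs broken ends towards recombination, and its normalised reads were 1259 and 1393 in the PBS libraries, 1573 and 1567 in the MCF10A EV libraries and 1820.0 and 1755 in the MDA-MB-231 EV libraries. The 3 groups did not overlap, with the MDA-MB-231 EV libraries highest and PBS lowest. Against PBS, Brca1 rose 1.35-fold with MDA-MB-231 EVs (log2 change 0.43 ± 0.049, adjusted p = 5.09e-06) and 1.19-fold with MCF10A EVs (log2 change 0.25 ± 0.049, adjusted p = 0.00128). Pairs of changes against PBS are given with MDA-MB-231 EVs first and MCF10A EVs second. Brca2, on chromosome 5, encodes the protein that places the recombinase on single-stranded DNA and stood at 1149 and 1239.7 (PBS), 1517 and 1531 (MCF10A EVs) and 1842 and 1977 (MDA-MB-231 EVs). Again each group was clear of the others, and Brca2 rose 1.60-fold (log2 change 0.68 ± 0.049, adjusted p = 5.08e-08) and 1.28-fold (log2 change 0.35 ± 0.049, adjusted p = 5.61e-05).

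Bard1 encodes the obligate partner of BRCA1 in its ligase, and its normalised reads were 456 and 403 for PBS, 411 and 480.0 for MCF10A EVs and 559.7 and 581 for MDA-MB-231 EVs. The PBS and MCF10A EV libraries overlapped, and both MDA-MB-231 EV libraries lay above all 4 others. Bard1 rose 1.33-fold with MDA-MB-231 EVs (log2 change 0.41 ± 0.085, adjusted p = 0.00142), while its log2 change with MCF10A EVs was 0.052 ± 0.085 (adjusted p = 0.699). Palb2, which bridges BRCA1 and BRCA2, had the lowest level of the group, also per exon length, at 126 and 116 in the PBS libraries, 148 and 199 in the MCF10A EV libraries and 209 and 196 in the MDA-MB-231 EV libraries. It rose 1.67-fold (log2 change 0.74 ± 0.14, adjusted p = 0.000787) and 1.42-fold (log2 change 0.51 ± 0.14, adjusted p = 0.0139), and the 2 MCF10A EV libraries lay far apart. Brip1, a helicase gene also known as Fancj, had 625 and 659 (PBS), 744 and 716 (MCF10A EVs) and 884 and 909.8 (MDA-MB-231 EVs). It rose 1.40-fold and 1.14-fold against PBS (adjusted p = 7.36e-06 and 0.0204), with no overlap of either vesicle group with PBS.

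Limits fell mostly on the MCF10A EV comparison. Without limma's trend Bard1 was no longer called with MDA-MB-231 EVs (adjusted p = 0.0684), nor Brca1 with MCF10A EVs (adjusted p = 0.0774). With MCF10A EVs, Palb2 also lost its call under DESeq2 and without PBS replicate 2 or MCF10A EV replicate 2 (highest adjusted p = 0.203), and Brip1 under quantile scaling, DESeq2 and without PBS replicate 1 or MCF10A EV replicate 1 (highest adjusted p = 0.17).

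Promoter sequence adds a property that the choice of genes did not use. Many genes of S phase are known to carry sites for E2F factors near their start, and CCAAT boxes bound by NF-Y are common in promoters of cell cycle genes. RefSeq start sites on GRCm38.p6 were found for 30 of the 37 genes (not Rad51d, Xrcc2, Rad54b, Rad50, Nbn, Exo1 or Fancd2), and the windows ran from 250 bases before the start to 50 bases after it. One of the E2F words TTTCCCGC, TTTGGCGC, TTTCGCGC or TTTGCCGC, on either strand, occurred in 6 of 30 genes (20%), against 4.12% of 11277 tested genes with a window and 2.26% of all 32851 windows. These 6 were Brca2, Bard1 and Chek2, which were called higher with MDA-MB-231 EVs, and Rad51c, Rmi1 and Fancg, which were not. Among genes with a window, the word was found in 3 of 19 that were called higher (15.8%) and 3 of 11 that were not (27.3%). A gene counted if any of its windows held the word, and Rad51b, Rad51c, Rad54l and Rmi1 had more than 1 window. In Rmi1 only 1 window held it, at base 26 after the start. Of the genes without a window, only Rad51d was not called with MDA-MB-231 EVs. The part of these differences in the shares was not tested. The 250 bases before the start are shown for 3 genes that rose and 1 that did not, with the E2F word in capitals, so that the same word can be seen on both sides of the call. GCGGGAAA is TTTCCCGC read on the other strand.
Brca2 (chr5:150522371-150522620, plus strand): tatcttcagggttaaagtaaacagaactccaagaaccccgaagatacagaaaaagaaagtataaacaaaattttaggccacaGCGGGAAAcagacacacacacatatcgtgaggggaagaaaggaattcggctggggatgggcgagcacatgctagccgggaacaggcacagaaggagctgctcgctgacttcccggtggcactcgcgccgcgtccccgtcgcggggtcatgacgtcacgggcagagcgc
Bard1 (chr1:71102973-71103222, minus strand): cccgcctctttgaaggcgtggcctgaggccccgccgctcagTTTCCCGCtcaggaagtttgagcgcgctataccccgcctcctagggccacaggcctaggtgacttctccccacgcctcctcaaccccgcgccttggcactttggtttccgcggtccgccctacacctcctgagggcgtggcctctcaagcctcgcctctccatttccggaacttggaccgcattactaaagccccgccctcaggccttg
Chek2 (chr5:110839733-110839982, plus strand): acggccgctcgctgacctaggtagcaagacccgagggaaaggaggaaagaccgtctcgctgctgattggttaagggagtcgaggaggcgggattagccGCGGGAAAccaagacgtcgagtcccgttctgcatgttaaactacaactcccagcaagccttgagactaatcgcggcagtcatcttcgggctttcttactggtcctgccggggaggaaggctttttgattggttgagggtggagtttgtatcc
Fancg (chr4:43010302-43010551, minus strand): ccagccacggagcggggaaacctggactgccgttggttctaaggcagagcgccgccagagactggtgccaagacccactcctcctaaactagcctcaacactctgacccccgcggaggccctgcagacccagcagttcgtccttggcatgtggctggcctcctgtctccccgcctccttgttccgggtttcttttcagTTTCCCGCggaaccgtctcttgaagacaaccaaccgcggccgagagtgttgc

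Counted from the start site, the E2F word began at base -168 in Brca2, -209 in Bard1, -152 in Chek2 and -52 in Fancg. A match is a description of letters, not of a bound site. The box CCAAT, on either strand and allowed to overlap other words, was found in 19 of 30 genes (63.3%), against 43.2% of the tested genes and 37.4% of all windows. It was in 13 of 19 genes called higher with MDA-MB-231 EVs (68.4%) and 6 of 11 not called (54.5%). Ube2t, which was called higher, and Fancf, which was not, each had 3 such boxes in the 250 bases before the start. The call of Ube2t was weak (limma adjusted p = 0.0267), and was lost without limma's trend, under quantile scaling and under DESeq2, among other settings. The pair is shown as a called and an uncalled gene with the same number of boxes, in capitals.
Ube2t (chr1:134962315-134962564, plus strand): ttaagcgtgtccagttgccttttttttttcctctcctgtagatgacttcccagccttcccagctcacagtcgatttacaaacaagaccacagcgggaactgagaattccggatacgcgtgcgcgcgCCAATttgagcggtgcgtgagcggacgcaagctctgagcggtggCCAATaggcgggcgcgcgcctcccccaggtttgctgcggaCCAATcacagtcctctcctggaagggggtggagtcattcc
Fancf (chr7:51862268-51862517, minus strand): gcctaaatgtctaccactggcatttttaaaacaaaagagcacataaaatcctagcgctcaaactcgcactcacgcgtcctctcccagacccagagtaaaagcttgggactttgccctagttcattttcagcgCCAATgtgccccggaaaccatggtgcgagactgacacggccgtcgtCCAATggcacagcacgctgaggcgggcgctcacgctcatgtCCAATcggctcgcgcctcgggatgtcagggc

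The boxes of Ube2t began at bases -124, -80 and -40, and those of Fancf at -118, -72 and -31. The CHR words TTTGAA and TTCGAA, on either strand, were in 4 of 30 genes (13.3%: Bard1, Rad51b, Eme1 and Atr) and in 17.1% of the tested genes.

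**Figure D3:**
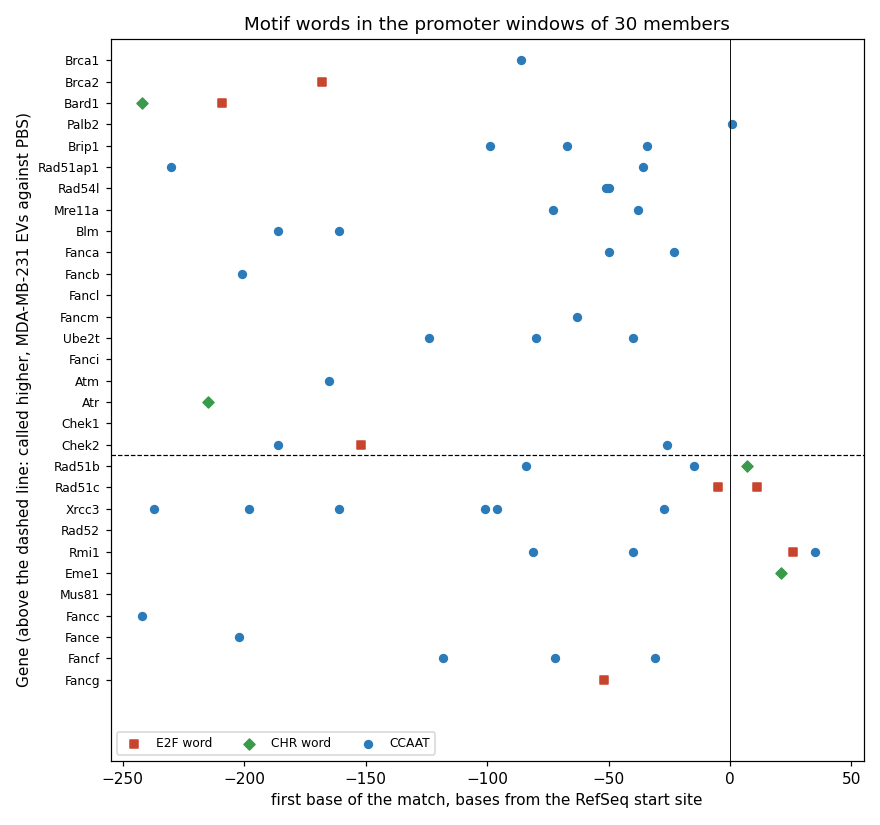
Position of each E2F word, CHR word and CCAAT box in the windows of 30 genes, as distance of its first base from the RefSeq start site at 0 in bases, with genes called higher with MDA-MB-231 EVs above the dashed line. E2F words lie on both sides of the dashed line, in 3 of 19 genes above it and 3 of 11 below it. Where a gene had several start sites, the matches of each window are drawn.

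All 4 measured genes of break sensing and resection rose in both comparisons with PBS. Mre11a and Rad50 encode the nuclease and the ATPase of the MRN complex, Nbn its adaptor subunit, and Exo1 a long-range resection nuclease. Rad50, on chromosome 11, had the highest level of the 4 per exon length, with normalised reads of 1544 and 1603 for PBS, 1905 and 1988 for MCF10A EVs and 2067 and 2132 for MDA-MB-231 EVs. It rose 1.33-fold (log2 change 0.42 ± 0.041, adjusted p = 1.18e-06) and 1.24-fold (log2 change 0.31 ± 0.041, adjusted p = 4.13e-05), and no libraries of different groups overlapped. Mre11a stood at 632 and 662 in the PBS libraries, 789 and 845 in the MCF10A EV libraries and 869.6 and 933 in the MDA-MB-231 EV libraries, and rose 1.39-fold and 1.26-fold (adjusted p = 1.39e-05 and 0.000506).

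Nbn had 437 and 518 (PBS), 585 and 588 (MCF10A EVs) and 631 and 648 (MDA-MB-231 EVs). Its PBS libraries lay further apart than the libraries of either vesicle group, but both stayed below them, and Nbn rose 1.34-fold (log2 change 0.43 ± 0.076, adjusted p = 0.000415) and 1.23-fold (log2 change 0.30 ± 0.076, adjusted p = 0.00686). Exo1, on chromosome 1, had the largest log2 changes of the 4, a ranking with no test between genes. Its normalised reads were 463 and 476 for PBS, 661 and 733 for MCF10A EVs and 706 and 801 for MDA-MB-231 EVs, and it rose 1.60-fold (log2 change 0.68 ± 0.073, adjusted p = 2.96e-06) and 1.48-fold (log2 change 0.57 ± 0.073, adjusted p = 3e-05), with the vesicle groups overlapping each other. The MCF10A EV call of Nbn was lost without limma's trend, without PBS replicate 1 and without MCF10A EV replicate 2 (highest adjusted p = 0.111).

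Of the 4 strand exchange factors 3 rose in both comparisons and Rad52 in neither. Rad54l encodes the motor protein that drives strand invasion, and its normalised reads were 323 and 305 in the PBS libraries, 469 and 458 in the MCF10A EV libraries and 520.0 and 507 in the MDA-MB-231 EV libraries. It rose 1.63-fold (log2 change 0.71 ± 0.073, adjusted p = 1.97e-06) and 1.47-fold (log2 change 0.56 ± 0.073, adjusted p = 3.34e-05), and the groups did not overlap. Rad51ap1, whose protein stimulates joint molecule formation, stood at 241 and 261 (PBS), 348 and 385 (MCF10A EVs) and 396 and 379 (MDA-MB-231 EVs), with both vesicle groups far above PBS. It rose 1.54-fold and 1.46-fold (adjusted p = 4.8e-05 and 0.000247).

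Rad54b, a relative of Rad54l, had 299 and 325 for PBS, 411 and 381 for MCF10A EVs and 449 and 485 for MDA-MB-231 EVs, and rose 1.497-fold and 1.27-fold (adjusted p = 4.76e-05 and 0.00473). In GENCODE M21, 39.1% of the exon bases of Rad54b are shared with Fsbp on the same strand, so its reads could belong in part to that gene, and its MCF10A EV call was lost without limma's trend, PBS replicate 1 or MCF10A EV replicate 1 (highest adjusted p = 0.0584). Rad52 encodes an annealing protein that mammalian cells use as a reserve route beside BRCA2. Its normalised reads were 303 and 293 in the PBS libraries, 292 and 271 in the MCF10A EV libraries and 271 and 269.6 in the MDA-MB-231 EV libraries, so that all 4 vesicle libraries lay below both PBS libraries. The log2 changes, -0.14 ± 0.09 and -0.082 ± 0.09, did not pass the test (adjusted p = 0.262 and 0.545).

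Among the 5 paralogs of the recombinase, which form complexes that stabilise its filament, only Xrcc2 was called in the main test. Xrcc2, on chromosome 5, had 271 and 267 (PBS), 351 and 332 (MCF10A EVs) and 345 and 383 (MDA-MB-231 EVs), with both vesicle groups above PBS. It rose 1.35-fold (log2 change 0.43 ± 0.087, adjusted p = 0.0011) and 1.27-fold (log2 change 0.34 ± 0.087, adjusted p = 0.00718). The second of these calls was lost under DESeq2 and without MCF10A EV replicate 1 (highest adjusted p = 0.0653). Rad51c, which is shared by the paralog complexes, stood at 257 and 257 for PBS, 278 and 279 for MCF10A EVs and 318 and 279.7 for MDA-MB-231 EVs. Its libraries were ordered by group with no overlap, but the log2 changes of 0.21 ± 0.095 and 0.12 ± 0.095 had adjusted p = 0.0981 and 0.402.

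Rad51b was at 121 and 135 in the PBS libraries, 119 and 122 in the MCF10A EV libraries and 145 and 144 in the MDA-MB-231 EV libraries, the lowest level of the paralogs per exon length, with a log2 change of 0.18 ± 0.13 for MDA-MB-231 EVs (adjusted p = 0.34). Rad51d was at 495 ± 36.9 normalised reads with PBS (mean ± SD, n = 2), 515 ± 16.7 with MCF10A EVs and 521 ± 39.2 with MDA-MB-231 EVs, and all groups overlapped. Xrcc3 was at 236 ± 7.62, 252 ± 9.47 and 251 ± 1.15 in the same order, and its log2 changes against PBS were 0.088 ± 0.10 and 0.10 ± 0.10.

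Of the 4 genes that separate joined molecules, Blm rose in both comparisons with PBS, Eme1 with MCF10A EVs, and Rmi1 and Mus81 in neither. Blm, the helicase gene of Bloom syndrome that dissolves double Holliday junctions, had 1013 and 1006 (PBS), 1171 and 1132 (MCF10A EVs) and 1287 and 1268 (MDA-MB-231 EVs). The groups did not overlap, and Blm rose 1.27-fold (log2 change 0.34 ± 0.045, adjusted p = 2.69e-05) and 1.14-fold (log2 change 0.19 ± 0.045, adjusted p = 0.00476). Its MCF10A EV call was lost under DESeq2 (adjusted p = 0.0677). Rmi1 encodes a partner of BLM and stood at 560.4 and 631 for PBS, 649.5 and 689 for MCF10A EVs and 605 and 669.5 for MDA-MB-231 EVs, with log2 changes of 0.10 ± 0.073 and 0.17 ± 0.073 (adjusted p = 0.338 and 0.0925).

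Eme1 and Mus81 encode the 2 subunits of a structure-specific endonuclease. Eme1 had 1406 and 1394 in the PBS libraries, 1524 and 1545 in the MCF10A EV libraries and 1446 and 1403 in the MDA-MB-231 EV libraries, so that the MCF10A EV libraries were the highest of the 6. It rose 1.096-fold with MCF10A EVs (log2 change 0.13 ± 0.041, adjusted p = 0.0238), and that call was lost without limma's trend, under DESeq2 and without any 1 of the PBS and MCF10A EV libraries (highest adjusted p = 0.191). With MDA-MB-231 EVs its log2 change was 0.025 ± 0.041 (adjusted p = 0.693). Mus81, on chromosome 19, was at 607 and 603 (PBS), 573 and 626 (MCF10A EVs) and 579.7 and 508 (MDA-MB-231 EVs). It had the lowest log2 change of the 37 genes with MDA-MB-231 EVs, -0.16 ± 0.073 (adjusted p = 0.12), and without MDA-MB-231 EV replicate 1 it passed the test as lower, with a log2 change of -0.25 (adjusted p = 0.0298). No other gene of the 37 was called lower against PBS under any alternative.

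The Fanconi core complex did not move as a block. Fanca, Fancb, Fancl, Fancm and Ube2t rose in both comparisons with PBS, and Fancc, Fance, Fancf and Fancg passed in neither. Fancm encodes the translocase that docks the core complex on DNA, and its normalised reads were 479 and 514 for PBS, 792 and 705 for MCF10A EVs and 719 and 747 for MDA-MB-231 EVs. All 4 vesicle libraries lay above PBS and the vesicle groups overlapped each other. Fancm rose 1.47-fold (log2 change 0.56 ± 0.068, adjusted p = 1.09e-05) and 1.503-fold (log2 change 0.59 ± 0.068, adjusted p = 1.19e-05). Fanca, on chromosome 8, had 784 and 768 in the PBS libraries, 1065 and 1143 in the MCF10A EV libraries and 1055 and 1117 in the MDA-MB-231 EV libraries, with the same order of groups. It rose 1.40-fold (log2 change 0.48 ± 0.053, adjusted p = 3.91e-06) and 1.42-fold (log2 change 0.51 ± 0.053, adjusted p = 4.69e-06). FANCA and FANCG bind each other in the core complex.

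Fancb, on chromosome X, encodes part of the catalytic module with FANCL and stood at 234 and 256 (PBS), 367 and 339 (MCF10A EVs) and 367 and 414 (MDA-MB-231 EVs). It rose 1.59-fold and 1.44-fold (adjusted p = 4.16e-05 and 0.000509). Fancl, the ubiquitin ligase gene of the complex, had 688 and 762 for PBS, 837 and 828 for MCF10A EVs and 924 and 848 for MDA-MB-231 EVs, and rose 1.22-fold (log2 change 0.29 ± 0.062, adjusted p = 0.0019) and 1.15-fold (log2 change 0.20 ± 0.062, adjusted p = 0.0234). Ube2t encodes the conjugating enzyme that works with FANCL, and it had 167 and 204 in the PBS libraries, 256 and 260.3 in the MCF10A EV libraries and 226 and 247 in the MDA-MB-231 EV libraries. The PBS libraries were wide apart, and the MCF10A EV libraries were the highest. Ube2t rose 1.28-fold (log2 change 0.35 ± 0.12, adjusted p = 0.0267) and 1.40-fold (log2 change 0.48 ± 0.12, adjusted p = 0.00475).

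The calls of Fancl and Ube2t were the weakest of the core. Without limma's trend neither was called in either comparison. Ube2t also lost its MDA-MB-231 EV call under quantile scaling, DESeq2 and without replicate 1 of PBS or replicate 2 of the MDA-MB-231 EVs (highest adjusted p = 0.256), and its MCF10A EV call without PBS replicate 1. Fancl lost its MCF10A EV call under quantile scaling, DESeq2 and without PBS replicate 1 or either MCF10A EV library (highest adjusted p = 0.236). In GENCODE M21, 17% of the exon bases of Fancl lie opposite Vrk2, and the strand that was counted is not given in the sources used here.

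Among the core genes that were not called, Fancg was nearest to the threshold. It stood at 213 and 242 (PBS), 261 and 244 (MCF10A EVs) and 292 and 260.5 (MDA-MB-231 EVs), with all 4 vesicle libraries above PBS and a log2 change of 0.28 ± 0.11 for MDA-MB-231 EVs (adjusted p = 0.053) and 0.15 ± 0.11 for MCF10A EVs (adjusted p = 0.318). Fancg was called higher with MDA-MB-231 EVs under the 1 CPM filter, library totals and edgeR, and without PBS replicate 2 or replicate 2 of the MDA-MB-231 EVs (lowest adjusted p = 0.0164). Fance, the member that contacts FANCD2, had 346 and 329.6 for PBS, 365 and 367 for MCF10A EVs and 389 and 386 for MDA-MB-231 EVs. Its 3 groups did not overlap, and its log2 changes were 0.20 ± 0.078 and 0.12 ± 0.078 (adjusted p = 0.0623 and 0.293). Fance was called higher with MDA-MB-231 EVs under the 1 CPM filter, limma without trend and library totals (lowest adjusted p = 0.0147). Fancc was at 207 ± 10.7, 215 ± 31.1 and 235 ± 20.9 normalised reads (mean ± SD, n = 2) with PBS, MCF10A EVs and MDA-MB-231 EVs. Fancf, on chromosome 7, was at 395 and 389.5 in the PBS libraries, 399.5 and 388 in the MCF10A EV libraries and 361 and 399 in the MDA-MB-231 EV libraries, and 1 MDA-MB-231 EV library was below and 1 above both PBS libraries.

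Both members of the substrate pair rose with either source of vesicles. Fancd2 and Fanci encode the proteins that clamp DNA once they carry ubiquitin. Fancd2, on chromosome 6, had 393 and 459 (PBS), 542 and 494 (MCF10A EVs) and 643 and 607 (MDA-MB-231 EVs), with the groups in that order and no overlap. It rose 1.47-fold (log2 change 0.56 ± 0.081, adjusted p = 6.67e-05) and 1.22-fold (log2 change 0.28 ± 0.081, adjusted p = 0.0146). Fanci, on chromosome 7, had 726 and 776 for PBS, 875 and 919.8 for MCF10A EVs and 1079.6 and 1050.0 for MDA-MB-231 EVs, in the same order. It rose 1.42-fold (log2 change 0.50 ± 0.054, adjusted p = 3.08e-06) and 1.20-fold (log2 change 0.26 ± 0.054, adjusted p = 0.00198). The MCF10A EV calls of both were lost without limma's trend, and that of Fancd2 also under quantile scaling, DESeq2 and without PBS replicate 1 or MCF10A EV replicate 1 (highest adjusted p = 0.19). In Fanci 13.4% of the exon bases lie opposite Polg.

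All 4 kinase genes rose with both sources. Atm and Atr encode the kinases that start the response to broken and to single-stranded DNA, and Chek2 and Chek1 the kinases they activate in turn. Atm, on chromosome 9, had 1209.7 and 1302 in the PBS libraries, 1736 and 1842 in the MCF10A EV libraries and 1863 and 1934 in the MDA-MB-231 EV libraries. Every vesicle library lay above both PBS libraries, and Atm rose 1.51-fold (log2 change 0.60 ± 0.047, adjusted p = 1.41e-07) and 1.42-fold (log2 change 0.51 ± 0.047, adjusted p = 1.45e-06). Atr had 967 and 986 (PBS), 1345 and 1335 (MCF10A EVs) and 1418 and 1496 (MDA-MB-231 EVs), with the groups in that order and no overlap. It rose 1.49-fold (log2 change 0.58 ± 0.045, adjusted p = 1.33e-07) and 1.37-fold (log2 change 0.46 ± 0.045, adjusted p = 2.86e-06).

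Chek1 stood at 332 and 382 for PBS, 462 and 474 for MCF10A EVs and 531 and 556 for MDA-MB-231 EVs, with the groups in that order and no overlap. It rose 1.52-fold (log2 change 0.61 ± 0.079, adjusted p = 2.07e-05) and 1.31-fold (log2 change 0.39 ± 0.079, adjusted p = 0.00138). Chek2, one of the genes with an E2F word shown above, had 314 and 268 in the PBS libraries, 362 and 386 in the MCF10A EV libraries and 401 and 439.6 in the MDA-MB-231 EV libraries, and rose 1.45-fold and 1.29-fold (adjusted p = 0.000327 and 0.00687). With MCF10A EVs, Chek1 was not called without limma's trend (adjusted p = 0.0526), and Chek2 neither there nor without PBS replicate 2 or MCF10A EV replicate 2 (highest adjusted p = 0.1).

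Over the 16 alternative settings, 22 of the 25 calls with MDA-MB-231 EVs held in every one, and the exceptions were Bard1, Fancl and Ube2t. With MCF10A EVs 11 of 25 held in every one: Brca2, Rad51ap1, Rad54l, Mre11a, Rad50, Exo1, Fanca, Fancb, Fancm, Atm and Atr. Calls with MCF10A EVs also fell over the whole table. Of all 15025 tested genes, limma without its trend called 1228 higher, against 2571 with it, and the count was lower without PBS replicate 1 too. Leaving out PBS replicate 1 gave the lowest MCF10A EV count of any library left out, 18 of 37, and limma without its trend called 13. Besides Fancg, Fance and Mus81, the uncalled genes that gained a call against PBS were Rad51c with MDA-MB-231 EVs under library totals (adjusted p = 0.0289), and Rmi1 with MCF10A EVs under the replicate block and without PBS replicate 2 (lowest adjusted p = 0.0472).

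The direct comparison of the 2 vesicle sources asked whether recipient transcripts differed between EVs of the cancer line and of the non-tumorigenic line. With 1 line of each kind, cancer origin cannot be told apart from other differences between the lines or the vesicle preparations. Brca1, Brca2, Bard1, Brip1, Blm, Fancd2 and Fanci were higher with MDA-MB-231 EVs, 7 of 37 genes, and none of the 37 was lower. Of all tested genes 6.84% were called higher and 10.1% lower. The median log2 change of the 37 genes was 0.12, within -0.14 to 0.36, against -0.0006 over all tested genes. At an unadjusted p under 0.05, 12 genes were higher and 1, Eme1, was lower, and edgeR and DESeq2 called 11 and 5 higher and 0 lower. Of all 15025 tested genes, 4318 had an unadjusted p under 0.05 in either direction. Over all genes, edgeR called 1351 of 12352 higher and 1636 lower, and DESeq2 577 of 16208 higher and 938 lower.

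Brca2 had the strongest call of the 7. It was 1.25-fold higher with MDA-MB-231 than with MCF10A EVs (log2 change 0.32 ± 0.049, adjusted p = 0.000283). Brip1 was 1.23-fold higher (log2 change 0.30 ± 0.057, adjusted p = 0.00196), Bard1 1.28-fold (log2 change 0.36 ± 0.085, adjusted p = 0.0089) and Brca1 1.14-fold (log2 change 0.19 ± 0.049, adjusted p = 0.0156). Palb2, the remaining gene of the BRCA group, was 1.18-fold higher on average but its groups overlapped (adjusted p = 0.313). The substrate pair was higher too, Fanci 1.19-fold (log2 change 0.25 ± 0.054, adjusted p = 0.00541) and Fancd2 1.21-fold (log2 change 0.27 ± 0.081, adjusted p = 0.0326). Blm was 1.11-fold higher (log2 change 0.15 ± 0.045, adjusted p = 0.034). In each of these 7 genes the lower MDA-MB-231 EV library was above the higher MCF10A EV library.

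These 7 calls depended on the setting. None was called in all 16 alternatives, because limma without a trend called 0 of the 37. It called 124 of all 15025 tested genes higher, against 1027 in the main fit. With a library of either vesicle source left out, calls between the sources fell over the whole table as well. Without MCF10A EV replicate 1 only 2 of 37, Brca2 and Brip1, were called, and 4 were called without MCF10A EV replicate 2 or without replicate 1 or 2 of the MDA-MB-231 EVs. Brca2 and Brip1 lost their call only without the trend (adjusted p = 0.0894 and 0.0716). No gene of the paralog, strand exchange, resection, core complex or kinase groups passed here, and the nearest was Rad54b, with a log2 change of 0.24 ± 0.082 (adjusted p = 0.0635). Under library totals Rad54b, Chek1, Rad50, Atr and Mre11a were also called higher between the sources (lowest adjusted p over the alternatives 0.0262, 0.0334, 0.0185, 0.0247 and 0.0474), and edgeR called Rad54b, Chek1, Rad50 and Atr.

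**Figure D4:**
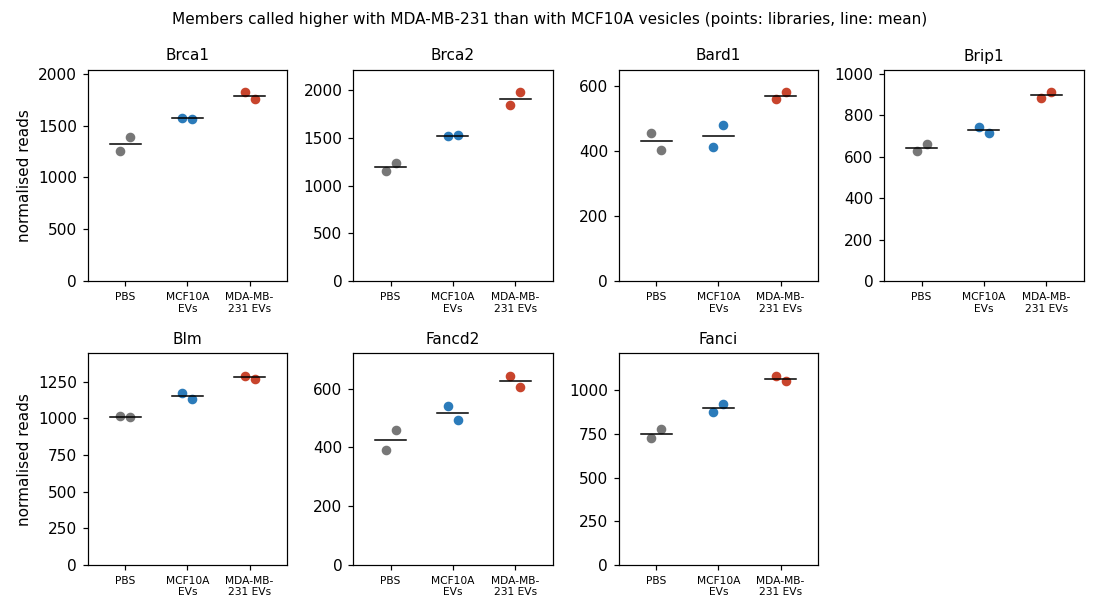
Normalised reads of the 7 genes called higher with MDA-MB-231 than with MCF10A EVs, with 1 point for each library and a line at the group mean, on axes that start at 0. The MDA-MB-231 EV libraries are the highest in every panel, and for Bard1 the PBS and MCF10A EV libraries overlap.

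Levels were compared between genes as normalised reads per kilobase of exon, using GENCODE M21 exon lengths. With PBS, Eme1 had the highest such level, 573, followed by Rad50 at 305, Mus81 at 293 and Fancl at 266. The lowest were Palb2 at 30.6, Rad51b at 36.2 and Fancc at 42.5. Brca1 stood at 202 and Brca2 at 111. The endonuclease genes Eme1 and Mus81 thus stood among the highest per length, and Mus81 was at 290.2 with MCF10A and 263 with MDA-MB-231 EVs. Of the exon bases of Eme1, 9.04% lie opposite Lrrc59 and 3.07% opposite Mrpl27. As the counted strand is not given, the level of Eme1 could include reads of those genes, which was not tested.

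The genes that rose tended to be longer and to have more reads. The 25 genes called higher with MDA-MB-231 EVs had a median exon length of 5153 bases and a median of 640.0 normalised reads, and the 12 not called had 2608 bases and 323.6 reads. The median exon length of 14401 tested genes was 3174 bases. Across the 37 genes, which are not independent replicates and share the libraries, Spearman's rho of exon length and log2 change was 0.487 with MDA-MB-231 EVs and 0.355 with MCF10A EVs. Across the 11002 tested genes whose mean reached 1 CPM it was 0.018 and -0.045. Lower read numbers give wider standard errors, and the part of length and depth in these calls was not tested.

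Related repair genes outside the 37 are given from lists drawn up by role. Of 34 other recombination and Fanconi genes, 16 rose and 2 fell with MDA-MB-231 EVs (median log2 change 0.23), and 18 rose and 1 fell with MCF10A EVs (median 0.20). With MDA-MB-231 EVs that is 47.1% and 5.88%, against 17.9% and 16.9% of all tested genes. With MCF10A EVs it is 52.9% and 2.94%, against 17.1% and 14.6%. Rpa1 encodes the large subunit of the protein that coats single-stranded DNA, and stood at 3479.6 and 3543 (PBS), 4772 and 4655 (MCF10A EVs) and 5008 and 4900.5 (MDA-MB-231 EVs). It rose 1.41-fold (log2 change 0.50 ± 0.031, adjusted p = 1.24e-08) and 1.34-fold (log2 change 0.42 ± 0.031, adjusted p = 1.55e-07). Fignl1, which removes the recombinase from DNA, rose 1.58-fold (log2 change 0.66 ± 0.057, adjusted p = 3.62e-07), and Rtel1, a helicase gene, 1.41-fold (log2 change 0.50 ± 0.045, adjusted p = 4.52e-07).

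Of 22 break signalling and checkpoint partners, 14 rose and 0 fell with MDA-MB-231 EVs, 63.6% and 0% against 17.9% and 16.9% of all tested genes. With MCF10A EVs 14 rose and 1 fell, 63.6% and 4.55% against 17.1% and 14.6%. Mdc1, a scaffold at broken ends, rose 1.38-fold (log2 change 0.46 ± 0.031, adjusted p = 2.39e-08) and 1.25-fold with MCF10A EVs (log2 change 0.32 ± 0.031, adjusted p = 2.24e-06). Topbp1, which activates ATR, rose 1.35-fold (log2 change 0.43 ± 0.034, adjusted p = 1.43e-07). Timeless, of the fork protection complex, rose 1.62-fold (log2 change 0.69 ± 0.053, adjusted p = 1.07e-07). End joining is the route that seals breaks without a template, and of its 9 genes 2 rose and 1 fell with MDA-MB-231 EVs (median log2 change -0.042). These shares, 22.2% and 11.1%, stand against 17.9% and 16.9% of all tested genes. Xrcc6, which encodes the Ku70 subunit that caps DNA ends, had 608 and 590.3 for PBS, 828 and 849.8 for MCF10A EVs and 839.9 and 808 for MDA-MB-231 EVs and rose 1.37-fold (log2 change 0.46 ± 0.055, adjusted p = 9.62e-06). Prkdc, the gene of the end joining kinase, rose 1.16-fold (log2 change 0.21 ± 0.055, adjusted p = 0.00677). Dclre1c, the Artemis nuclease gene, stood at 879 and 858 in the PBS libraries, 773 and 785 in the MCF10A EV libraries and 748 and 726 in the MDA-MB-231 EV libraries and fell by 0.24 on the log2 scale with MDA-MB-231 EVs (adjusted p = 0.00246).

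Genes of S phase moved with the recombination genes. All 23 S phase genes on the list rose with MDA-MB-231 EVs (median log2 change 0.51, range 0.23 to 0.64) and all 23 with MCF10A EVs (median 0.41), and 6 were higher with MDA-MB-231 than with MCF10A EVs. Of all tested genes, 17.9%, 17.1% and 6.84% were called higher in the same order of comparisons. Mcm4, a subunit of the replicative helicase, had 3801 and 3903 (PBS), 5293 and 5234 (MCF10A EVs) and 5875 and 5824 (MDA-MB-231 EVs), and rose 1.52-fold (log2 change 0.60 ± 0.03, adjusted p = 9.38e-10) and 1.37-fold (log2 change 0.45 ± 0.03, adjusted p = 5e-08). Mcm3 rose 1.52-fold and Mcm5 1.56-fold with MDA-MB-231 EVs (adjusted p = 1.24e-09 and 1.81e-09). Mki67, a transcript of dividing cells, stood at 15399.6 and 16237 for PBS, 19361 and 20009 for MCF10A EVs and 22457 and 22292 for MDA-MB-231 EVs. It rose 1.42-fold with MDA-MB-231 EVs (log2 change 0.50 ± 0.03, adjusted p = 7.2e-09) and 1.24-fold with MCF10A EVs (log2 change 0.32 ± 0.03, adjusted p = 1.8e-06), and was 1.14-fold higher with MDA-MB-231 than with MCF10A EVs (log2 change 0.18 ± 0.03, adjusted p = 0.000526). The part of a change in dividing cells in the rises of the 37 genes was not tested.

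**Figure D5:**
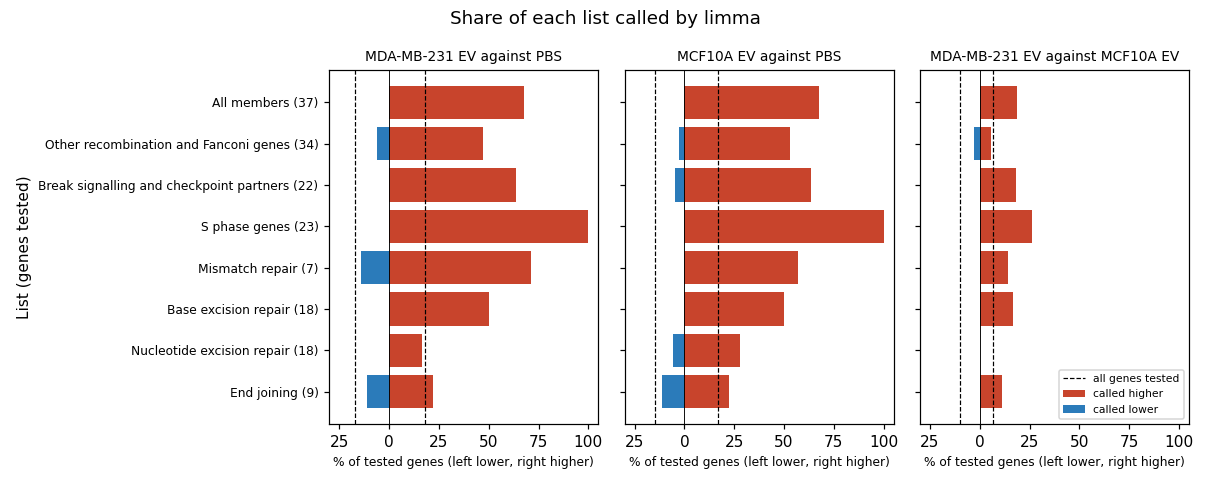
Percent of the tested genes of each list called higher (right of 0) and lower (left of 0) by limma in the 3 comparisons, with dashed lines at the percent of all tested genes. The S phase list reaches 100% higher in both comparisons with PBS, and the end joining list has 22.2% higher and 11.1% lower in each of them.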

How the data were processed

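RNA-seq of NIH3T3 cells gave 6 libraries in 3 groups of 2. Per the submitters' processing notes, TopHat2 and edgeR were used and the build was named hg19, although its rows are mouse genes with mouse chromosomes. Versions, read counter, annotation and mouse build were not given in the sources used here. The authors deposited a table of signal, edgeR quantile-adjusted pseudo-counts called normalised reads here. Undoing that adjustment at a common dispersion of 0.000591 returned whole reads for 122850 of 122850 values (relative tolerance 1e-06).

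limma 3.58.1 with trend in R 4.3.3 was fitted to log2 of the value plus 1 with a mean per group (3 residual and 11.5 prior degrees of freedom). Fold changes on that scale understate changes of low genes. The 16 alternatives were 2 other pseudocounts, 2 filters, no trend, 2 scalings, edgeR 4.0.16 and DESeq2 1.42.0 on recovered reads, a replicate block, and each library left out. All 37 genes are given by name. From each related list up to 3 called genes with the smallest p for MDA-MB-231 EVs against PBS are named, and Mki67 for reference. The genes, lists and tests were chosen with earlier results of these data known. Of the 37 other recombination and Fanconi symbols listed, 34 matched. The fits were tested on simulated data. Exon lengths and overlaps come from GENCODE M21 (GRCm38), promoters from RefSeq.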

Additional observations from a re-analysis of the deposited data

How the results depend on the processing

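The values of each setting are given for MDA-MB-231 EVs against PBS, then MCF10A EVs against PBS, then between the 2 sources. Limma without its trend called 1634, 1228 and 124 genes higher, where the trend fit called 2688, 2571 and 1027, and it called 1003 genes lower with MCF10A EVs and 254 between the sources, against 2193 and 1514. DESeq2 on the recovered reads called 1756, 1646 and 577 higher, and 938 lower between the sources, and library totals called 1784 higher between the sources. Of the 37 repair genes, limma without trend called 13 higher with MCF10A EVs and 0 between the sources, where library totals called 12 and edgeR 11, against 7. With each library left out in turn, 1461 to 2272 genes were lower with MCF10A EVs, and between the sources 517 to 901 were higher and 908 to 1395 lower. Of the repair genes, 2 to 7 were then higher between the sources and 0 to 1 lower with MDA-MB-231 EVs against PBS. Leaving a library out leaves 1 sample in its group, which is then assumed to vary like the others. The cause of these shifts was not tested.

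No repair gene changed sign in a comparison in which it was called. Among log2 changes that were not called, library totals turned Fancf to 0.0181 with MDA-MB-231 EVs, Mus81 to 0.0072 with MCF10A EVs, and Xrcc3, Fanca and Fancm to 0.0334, 0.0218 and 0.0121 between the sources. Fancf with MCF10A EVs was -0.0204 under quantile scaling, -0.0033 in edgeR and -0.0074 in DESeq2. With each library left out, the ranges with MDA-MB-231 EVs were -0.0015 to 0.1517 for Rad51d and -0.1210 to 0.0247 for Fancf. With MCF10A EVs they were -0.0592 to 0.1627 for Bard1, -0.0161 to 0.1358 for Rad51d, -0.0766 to 0.0499 for Mus81, -0.0962 to 0.1987 for Fancc and -0.0167 to 0.0262 for Fancf. Between the sources they were -0.0613 to 0.0918 for Rad51d, -0.0455 to 0.0309 for Xrcc3, -0.1462 to 0.0010 for Rmi1, -0.0744 to 0.0285 for Fanca, -0.0139 to 0.2809 for Fancc, -0.1257 to 0.0200 for Fancf and -0.1115 to 0.0566 for Fancm.

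Samples with the same replicate number did not deviate together (correlations -0.010, 0.008 and 0.049 over 11474 genes). With 2 libraries a group, these correlations cannot show whether such samples shared a culture or a batch. A replicate block called 25, 26 and 7 of the 37 genes higher. With 2 libraries a group, changes of low genes such as Palb2 and Rad51b were measured least precisely.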

Other observations

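Repair routes that act on bases rather than on breaks moved in part with the recombination genes. Of 7 mismatch repair genes 5 rose and 1 fell with MDA-MB-231 EVs against PBS, 71.4% and 14.3% against 17.9% and 16.9% of all tested genes. With MCF10A EVs 4 rose and 0 fell, 57.1% and 0% against 17.1% and 14.6%. Msh6, which takes part in finding mispaired bases, stood at 2049.8 and 2013 in the PBS libraries, 2434 and 2526 in the MCF10A EV libraries and 2649.8 and 2571 in the MDA-MB-231 EV libraries and rose 1.28-fold (log2 change 0.36 ± 0.037, adjusted p = 1.85e-06). Of 18 base excision repair genes 9 rose and 0 fell in each comparison with PBS, or 50% and 0%, beside the same shares of all tested genes. Parp1, which senses nicked DNA, had 3156 and 3199 (PBS), 3906 and 4002 (MCF10A EVs) and 4299 and 4189 (MDA-MB-231 EVs), and rose 1.34-fold (log2 change 0.42 ± 0.032, adjusted p = 1.07e-07). Neil3, a glycosylase gene, rose 1.43-fold with MDA-MB-231 EVs (log2 change 0.52 ± 0.072, adjusted p = 4.28e-05) and was 1.30-fold higher than with MCF10A EVs (log2 change 0.38 ± 0.072, adjusted p = 0.00198). Of 18 nucleotide excision repair genes, the route for bulky lesions, 3 rose and 0 fell with MDA-MB-231 EVs, 16.7% and 0% against 17.9% and 16.9% of all tested genes. With MCF10A EVs 5 rose and 1 fell, 27.8% and 5.56% against 17.1% and 14.6%. Gtf2h1, a subunit of the repair and transcription factor TFIIH, rose 1.29-fold (log2 change 0.37 ± 0.039, adjusted p = 2.51e-06).

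Targets of p53, many of which respond to DNA damage, moved both ways. Of 22 such genes 6 rose and 5 fell with MDA-MB-231 EVs against PBS, 27.3% and 22.7% against 17.9% and 16.9% of all tested genes. With MCF10A EVs 10 rose and 1 fell, 45.5% and 4.55% against 17.1% and 14.6%. Between the sources 0 were higher and 9 were lower with MDA-MB-231 EVs, 0% and 40.9% against 6.84% and 10.1% of all tested genes. Cdkn1a encodes the cyclin-dependent kinase inhibitor p21, which slows entry into S phase. Its normalised reads were 4431 and 4339 for PBS, 4115 and 4179 for MCF10A EVs and 3211 and 3089 for MDA-MB-231 EVs, so that the MDA-MB-231 EV libraries were the lowest and the groups did not overlap. Cdkn1a fell by 0.48 on the log2 scale with MDA-MB-231 EVs (adjusted p = 3.2e-08), and its log2 change with MCF10A EVs was -0.081 ± 0.033 (adjusted p = 0.078). Plk2, a stress-induced kinase gene, had 3713 and 3665 in the PBS libraries, 4444 and 4348 in the MCF10A EV libraries and 3041 and 2860.3 in the MDA-MB-231 EV libraries. It fell by 0.32 with MDA-MB-231 EVs (adjusted p = 3.87e-06) and rose 1.19-fold with MCF10A EVs (log2 change 0.25 ± 0.035, adjusted p = 6.81e-05). Ccng1, a cyclin gene induced by p53, rose 1.20-fold (log2 change 0.27 ± 0.029, adjusted p = 3.58e-06) and 1.18-fold (log2 change 0.24 ± 0.029, adjusted p = 1.93e-05).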
